A study of Homo sapiens with 12 samples.

Results

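The kinesin family was examined in SZ95 sebocytes by the genes whose symbol begins with KIF followed by a family number or letter code. Each gene was read from the entry that names it alone and, where several entries did, from the one with the highest mean signal. This gave 41 kinesin genes of the 18417 genes measured. By textbook role 13 were counted as mitotic kinesins, 17 as transport kinesins, 6 as kinesins of the cilium and of Hedgehog signalling, and 5 as other kinesins. CENPE, a mitotic kinesin whose symbol does not begin with KIF, was followed among the partner genes. KIF4B shared its single entry with KIF4A and was therefore not a member.

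Kinesins are motors that step along microtubules with energy from ATP. The mitotic kinesins act at division. KIF11 pushes spindle poles apart, KIFC1 is a minus-end motor that clusters poles, KIF2C removes tubulin from microtubule ends, KIF18A and KIF18B limit the growth of kinetochore and astral microtubules, KIF4A and KIF22 act on chromosome arms, and KIF20A, KIF23 and KIF14 work at the midzone and midbody of the dividing cell. In most cell types the mRNAs of such genes accumulate in G2 and M phase and are low in resting cells. The transport kinesins carry vesicles, mitochondria, endosomes and other cargo in cells at any stage. Among them KIF5A, KIF5B and KIF5C are heavy chains of conventional kinesin, and KIF3A pairs with KIF3B or KIF3C in heterodimers that move cargo and, in the cilium, build the axoneme.

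SZ95 is a human sebaceous gland cell line immortalised with a viral large T antigen. All 12 samples are RNA of this line grown in Sebomed medium and transfected by lipofection with Lipofectamine 2000. There were 4 groups of 3 samples: OLR1 siRNA with UVPAPC, OLR1 siRNA untreated, scramble siRNA with UVPAPC, and scramble siRNA untreated. UVPAPC is palmitoyl-arachidonoyl-phosphatidylcholine oxidised by ultraviolet light, added at 25 µg/ml, 24 h after transfection. OLR1 encodes a scavenger receptor for oxidised lipids and lipoproteins. No untransfected cells, solvent control or unoxidised PAPC are among the samples, and no source used here states how long the exposure lasted. The labels do not say whether samples of a group came from separate cultures, so p-values reflect no more than how these samples vary, possibly for technical reasons.

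RNA was hybridised to 1-colour whole-transcript arrays, and values below are the deposited log2 signals. A difference of 1 on this scale is a doubling of signal. Array medians lay between 5.73 and 5.83, and arrays correlated over genes at 0.996 to 0.998 within groups and at 0.988 to 0.995 across groups. OLR1 itself was lower with OLR1 siRNA, 2.64-fold in UVPAPC-treated cells (limma, adjusted p 0.000162) and 2.28-fold in untreated cells (adjusted p 0.000484). Its signal was 4.33 to 4.66 with OLR1 siRNA and 5.35 to 6.19 with scramble siRNA, on all arrays below the median of 6.35 over genes. The epithelial keratin and adhesion genes KRT5, KRT7, KRT8, KRT18, KRT19, EPCAM and CDH1 lay above the 99th percentile of genes. The keratins KRT14 and KRT15 were lower, at percentiles 48.37 and 32.67. AWAT2, FABP4, MC5R and ELOVL3, genes of the differentiated sebocyte, lay at or below percentile 17.2. PTPRC, PECAM1, DCN and LUM, which define leukocytes, endothelium and fibroblasts, lay at or below percentile 14.9. Other markers of these cell types were higher, with CD68 at percentile 94.64, CDH5 at 80.82, and the collagen genes COL6A2, COL1A1 and COL5A1 at 66.32, 64.05 and 57.55. These are bulk samples: a smaller share of dividing cells and less kinesin mRNA per cell cannot be told apart.

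Of the 41 kinesins, 28 had a mean signal above 6.35, the median over all genes. They were 12 of 13 mitotic, 12 of 17 transport, 3 of 6 cilium and Hedgehog and 1 of 5 other kinesins. No kinesin was removed for low signal. KIF2B was the mitotic kinesin below that median, with 4.25 to 4.73 on all arrays.

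Promoter sequence is shown first, because short upstream elements are common among the mitotic kinesins. Whether these elements have a part in the results below was not tested. The cell cycle homology region, read here as TTTGAA or TTCGAA, is bound by the DREAM and B-MYB complexes that silence and activate G2/M genes, and CCAAT is the element of the factor NF-Y. Both strands of the RefSeq windows (GRCh38.p14, 250 bases before to 50 after each gene start) were searched, and no motif contains another. Windows were found for 33 of the 41 kinesins, and KIF5A, KIF13B, KIF19, KIF21B, KIF26B, KIF27, KIFC2 and KIFC3 were not searched. The cell cycle homology region stood in 11 of the 14 windows of mitotic kinesins (78.57%), in 1 of the 17 windows of transport kinesins (5.88%), that of KIF5B, and in 16.35% of all 35116 windows. CCAAT stood in 10 windows of mitotic kinesins (71.43%), 5 of transport kinesins (29.41%) and 34.61% of all windows. Both motifs were present in 9 windows of mitotic kinesins (64.29%), against 6.38% of all windows. An E2F site, read as TTTGGCGC or TTTCGCGC, was in 1 window of a mitotic kinesin (7.14%), that of KIF15, in 0 of the 17 windows of transport kinesins and in 1.15% of all windows. A match is a run of letters and not a measured site of binding, and several genes have more than 1 window. The 2 windows of KIF22 overlap and hold the same match, so that 10 of the 13 mitotic kinesin genes had the cell cycle homology region, 10 had CCAAT and 9 had both.

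The upstream 150 bases of the 4 mitotic kinesins with the lowest p in scramble cells, among those lower with UVPAPC under both siRNAs, are printed below 5′ to 3′ up to the base before the gene start. All 4 genes lie on the plus strand, and the windows are chr15:69414199-69414348 for KIF23, chr5:138178962-138179111 for KIF20A, chr6:33391673-33391822 for KIFC1 and chr10:92592980-92593129 for KIF11. Capitals mark the motifs, ATTGG being CCAAT and TTCAAA being TTTGAA read on the opposite strand.
KIF23: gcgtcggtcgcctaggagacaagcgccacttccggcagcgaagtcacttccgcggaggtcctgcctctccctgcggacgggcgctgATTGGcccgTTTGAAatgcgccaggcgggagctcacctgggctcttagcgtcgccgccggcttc
KIF20A: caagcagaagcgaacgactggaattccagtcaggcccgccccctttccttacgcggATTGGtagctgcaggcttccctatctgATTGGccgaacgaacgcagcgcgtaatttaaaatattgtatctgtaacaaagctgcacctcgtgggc
KIFC1: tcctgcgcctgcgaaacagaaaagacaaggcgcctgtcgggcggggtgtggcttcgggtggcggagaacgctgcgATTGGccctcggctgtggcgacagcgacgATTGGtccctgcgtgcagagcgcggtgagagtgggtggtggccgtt
KIF11: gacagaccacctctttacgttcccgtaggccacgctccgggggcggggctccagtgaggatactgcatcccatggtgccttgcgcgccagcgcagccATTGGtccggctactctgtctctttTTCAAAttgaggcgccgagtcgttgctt
KIF23 and KIF11 carry CCAAT followed by the cell cycle homology region, at -64 and -55 from the start in KIF23 and at -53 and -28 in KIF11. KIF20A and KIFC1 carry 2 CCAAT motifs each, at -94 and -67 in KIF20A and at -75 and -46 in KIFC1. No cell cycle homology region with these letters lies in the window of KIF20A, KIF2B or KIF2C, and that of KIFC1 starts at base 5 of the transcript, outside the stretch printed. The windows of KIF2B, KIF2C and KIF15 hold no CCAAT.

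The first question is what oxidised PAPC did to the kinesins. In scramble cells 8 of the 13 mitotic kinesins were lower with UVPAPC than untreated, 0 were higher and 5 did not pass the test. That is 61.5% of the mitotic kinesins, where 7.31% of all genes passed in either direction and 4.64% were lower (limma on all 12 arrays, Benjamini-Hochberg adjusted p under 0.05 over all genes, as in every count that follows). The median log2 difference of the mitotic kinesins was -0.30, against -0.002 over all genes. The 8 were the midzone motors KIF23 and KIF20A, the pole-clustering KIFC1, the pole-separating KIF11, the depolymerase KIF2C, KIF18B, the chromosome-arm motor KIF4A and KIF22. Signals of the treated and untreated arrays did not overlap for 9 of the 13, all lower with UVPAPC, where 14.0% of all genes were lower without overlap.

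KIF23, the motor of the centralspindlin complex of cytokinesis, had log2 signals of 9.57, 9.52 and 9.47 with UVPAPC and 10.35, 10.17 and 10.17 untreated. The arrays did not overlap, and the difference was -0.71 (SE 0.07, 95% interval -0.85 to -0.57, 1.64-fold lower, adjusted p 6.2e-06). KIF20A, which carries the chromosomal passenger complex to the midzone, had 6.54, 6.69 and 6.29 with UVPAPC and 7.33, 7.06 and 7.16 untreated, a difference of -0.68 (SE 0.10, 1.6-fold lower, adjusted p 0.00057). KIFC1 had 7.24, 7.33 and 7.06 with UVPAPC and 7.68, 7.77 and 7.84 untreated, a difference of -0.55 (SE 0.09, adjusted p 0.000717). All treated arrays were below all untreated ones for both genes. The other differences past the test were -0.42 for KIF11, -0.39 for KIF2C, -0.38 for KIF4A, -0.30 for KIF18B and -0.26 for KIF22. Of those that did not pass, KIF15, a second plus-end spindle motor, had the largest difference (-0.27, adjusted p 0.137), KIF18A was just outside the threshold (-0.26, adjusted p 0.0501), and KIF14 had -0.03 (95% interval -0.18 to 0.13). The calls of KIF4A, KIF22 and KIF18B, the smallest differences past the test, ended when some single arrays were left out. KIF4A did not pass without UVPAPC replicate 1 (adjusted p 0.117) or 3 (0.0907) or untreated replicate 1 (0.0706) or 2 (0.094), KIF22 without UVPAPC replicate 1 (0.0838) or 3 (0.0891) or untreated replicate 1 (0.0849) or 3 (0.106), and KIF18B without UVPAPC replicate 3 (0.0589) or untreated replicate 2 (0.0546). Without UVPAPC replicate 3 the count was 5 instead of 8, and without UVPAPC replicate 2 KIF15 passed (adjusted p 0.0421).

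With OLR1 siRNA, UVPAPC again went with lower mitotic kinesins. Here 8 of 13 were lower than in untreated cells, 0 were higher and 5 did not pass, against 6.71% of all genes in either direction and 3.25% lower. Their median log2 difference was -0.37, against -0.01 over all genes. Treated and untreated arrays did not overlap for 12 of the 13, all lower with UVPAPC, where 12.8% of all genes were lower without overlap. The exception was KIF2B.

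KIF23 had 10.34, 10.34 and 10.31 with UVPAPC and 10.83, 10.92 and 10.86 untreated in OLR1 siRNA cells, a difference of -0.54 (SE 0.07, 1.46-fold lower, adjusted p 9.66e-05). KIF18A, which dampens chromosome oscillation at the metaphase plate, had 7.40, 7.27 and 7.44 with UVPAPC and 7.83, 7.96 and 7.88 untreated, a difference of -0.52 (SE 0.07, 1.43-fold lower, adjusted p 0.00035). KIF20A had 7.73, 7.52 and 7.67 with UVPAPC and 8.39, 8.27 and 8.16 untreated, a difference of -0.63 (SE 0.10, 1.55-fold lower, adjusted p 0.000969). In all 3 genes the treated arrays lay below the untreated ones. KIF2C (-0.45), KIFC1 (-0.45), KIF18B (-0.42), KIF11 (-0.37) and KIF14 (-0.29) also passed. KIF15 had -0.34 (adjusted p 0.062), KIF4A -0.28 (0.112) and KIF22 -0.23 (0.0576), and these did not pass. KIF14 did not pass without untreated replicate 2 (adjusted p 0.104) or UVPAPC replicate 2 (0.0921) or 3 (0.0506), nor did KIF11 without untreated replicate 2 (0.0603). KIF15 passed without scramble untreated replicate 1 (0.0392) or scramble UVPAPC replicate 2 (0.0394) or 3 (0.0453), arrays that enter only the shared estimate of spread, and in a fit of the 6 arrays alone (0.0293). It also passed with robust moderation of the variance (0.0387) and among genes above the median signal only (0.0234). The comparisons in OLR1 siRNA and in scramble cells share no arrays. Of the 10 mitotic kinesins lower with UVPAPC in either, 6 were lower in both: KIF11, KIF18B, KIF20A, KIF23, KIF2C and KIFC1.

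**Figure D1:**
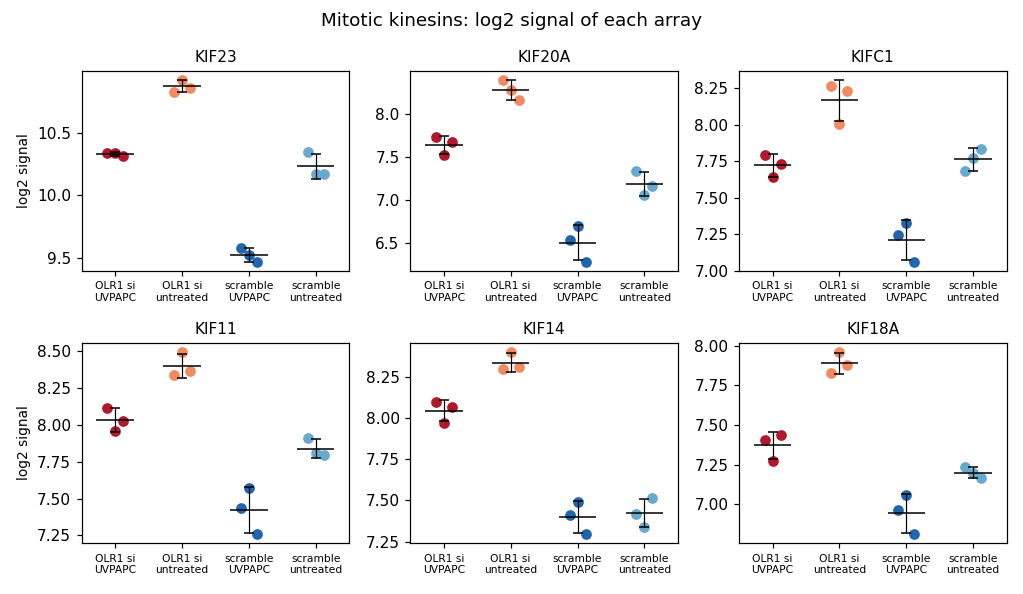
Log2 signal (y axis, own range in each panel) of 6 mitotic kinesins on each of the 12 arrays, by siRNA and treatment. Points are arrays, the line is the group mean and the bars are the SD (n = 3). KIF23, KIF20A, KIFC1, KIF11 and KIF18A lie lower with UVPAPC than untreated under each siRNA (KIF18A passed the test in OLR1 siRNA cells only), and all 6 lie higher with OLR1 siRNA than with scramble siRNA under each treatment.

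The transport kinesins did not move as a group with UVPAPC. In scramble cells 2 of 17 were higher (2.67% of all genes were), 1 was lower (4.64%) and 14 did not pass, with a median log2 difference of 0.01. Arrays did not overlap for 2 that were higher and 3 that were lower, beside 10.1% and 14.0% of all genes. In OLR1 siRNA cells 2 were higher (3.46% of all genes were), 0 were lower (3.25%) and 15 did not pass, with a median of -0.04. Here 5 were higher and 3 lower without overlap, beside 10.9% and 12.8% of all genes. KIF3C and KIF21A were higher under both siRNAs. KIF3C, a KIF3A partner best known from neurons, had 8.34, 8.29 and 8.35 with UVPAPC and 7.80, 7.84 and 7.80 untreated in OLR1 siRNA cells, a difference of 0.51 (SE 0.07, 1.43-fold, adjusted p 0.000157). In scramble cells it had 8.46, 8.45 and 8.38 with UVPAPC and 7.94, 7.96 and 8.14 untreated, a difference of 0.41 (SE 0.07, 1.33-fold, adjusted p 0.00101). Treated arrays were above untreated ones under both siRNAs.

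KIF21A was counted with the transport kinesins, though it is also a kinesin that halts microtubule growth at the cell cortex. It differed by 0.44 in OLR1 siRNA cells (adjusted p 0.00569) and by 0.37 in scramble cells (0.0194). The difference in scramble cells did not pass without scramble UVPAPC replicate 1 (adjusted p 0.0862) or 2 (0.0674) or scramble untreated replicate 2 (0.0575) or 3 (0.0953). KIF3A was the transport kinesin that was lower in scramble cells. It had 6.84, 6.87 and 6.93 with UVPAPC and 7.52, 7.33 and 7.62 untreated, a difference of -0.61 (SE 0.09, 1.53-fold lower, adjusted p 0.000261). In OLR1 siRNA cells, where its level was lower in both treatments, the difference was -0.22 (adjusted p 0.17) and did not pass. Of the transport kinesins that did not pass, KIF1B, a carrier of mitochondria and synaptic vesicle precursors, had the largest difference in scramble cells (0.17, adjusted p 0.217) and KIF13B, a carrier of membrane cargo, in OLR1 siRNA cells (-0.23, 0.0541), where it passed without OLR1 siRNA UVPAPC replicate 3 (0.0421). KIF13B also passed there among genes above the median signal only (0.0188).

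Among the 6 kinesins of the cilium and of Hedgehog signalling, KIF24 was the only member past the test with UVPAPC under either siRNA. KIF24 removes tubulin at the centriole and restrains the outgrowth of cilia. It had 6.45, 6.46 and 6.34 with UVPAPC and 6.87, 6.71 and 6.92 untreated in OLR1 siRNA cells (-0.42, adjusted p 0.0021). In scramble cells it had 5.99, 5.84 and 5.94 with UVPAPC and 6.27, 6.21 and 6.34 untreated (-0.35, adjusted p 0.00678). Its treated arrays were below the untreated ones under both siRNAs. The largest difference that did not pass was 0.25 for KIF19 in scramble cells (adjusted p 0.141) and -0.13 for KIF6 in OLR1 siRNA cells (0.517). None of the 5 other kinesins passed. KIF2A, a depolymerase at spindle poles and in interphase, had the largest difference, -0.20 in OLR1 siRNA cells (adjusted p 0.0728) and -0.15 in scramble cells (0.183). In OLR1 siRNA cells it passed with repeated quantile normalisation (0.0296), cyclic loess (0.0269), array weights (0.0476) and robust moderation of the variance (0.022). It also passed there among genes above the median signal only (0.0266).

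The second question is what OLR1 siRNA did. In UVPAPC-treated cells 11 of 13 mitotic kinesins were higher with OLR1 than with scramble siRNA, 0 were lower and 2 did not pass. That is 84.6%, where 12.5% of all genes passed in either direction and 7.94% were higher, and the median log2 difference was 0.47, against -0.01 over all genes. In untreated cells 10 were higher, 0 were lower and 3 did not pass (76.9%), where 9.71% of all genes passed and 5.29% were higher, with a median of 0.51, against -0.001 over all genes. Arrays did not overlap for 11 of the 13 in UVPAPC-treated cells, all higher, beside 16.6% of all genes. In untreated cells 12 were higher without overlap, beside 15.0% of all genes, and KIF2B was lower without overlap, beside 13.7%. The comparisons in treated and untreated cells share no arrays, and 10 of the 11 mitotic kinesins higher in either were higher in both: KIF11, KIF14, KIF15, KIF18A, KIF20A, KIF20B, KIF23, KIF2C, KIF4A and KIFC1. Each comparison of siRNAs shares arrays with each comparison of treatments, so the values are not independent between them.

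KIF20A had the largest difference of the mitotic kinesins. The array values given above put the UVPAPC-treated cells at 7.64 ± 0.10 with OLR1 siRNA and 6.51 ± 0.21 with scramble siRNA (SD, n = 3 each), a difference of 1.13 (SE 0.10, 2.2-fold, adjusted p 5.76e-06 by limma). The untreated cells were at 8.28 ± 0.12 with OLR1 siRNA and 7.18 ± 0.14 with scramble siRNA, a difference of 1.09 (2.13-fold, adjusted p 6.16e-06). KIF14, which recruits citron kinase to the midbody, had 8.10, 7.97 and 8.07 with OLR1 siRNA and 7.41, 7.49 and 7.30 with scramble siRNA under UVPAPC, a difference of 0.65 (SE 0.07, 1.56-fold, adjusted p 4.59e-05). In untreated cells KIF14 had 8.29, 8.40 and 8.31 with OLR1 siRNA and 7.42, 7.34 and 7.51 with scramble siRNA, a difference of 0.91 (1.88-fold, adjusted p 1.24e-06). The siRNA groups did not overlap in either treatment for KIF20A or KIF14.

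KIF23 differed by 0.81 in UVPAPC-treated cells (SE 0.07, 1.75-fold, adjusted p 2.74e-06) and by 0.64 in untreated cells (1.56-fold, 1.67e-05). KIF11 differed by 0.61 and 0.56, KIF18A by 0.43 and 0.69, KIF15 by 0.51 and 0.57, KIF20B, a midzone motor related to KIF20A, by 0.43 and 0.51, KIFC1 by 0.51 and 0.40, KIF4A by 0.47 and 0.36, and KIF2C by 0.36 and 0.42, in UVPAPC-treated and untreated cells in that order. KIF22 passed in treated cells (0.24, adjusted p 0.031) and had 0.21 in untreated cells (0.0691). KIF18B, which was lower with UVPAPC under both siRNAs, had -0.02 in treated cells (adjusted p 0.872) and 0.09 in untreated cells (0.496). KIF2B had -0.07 (adjusted p 0.648) and -0.24 (0.0936). KIF22 in treated cells did not pass without scramble replicate 1 (adjusted p 0.0799) or 3 (0.0946) or OLR1 siRNA replicate 1 (0.0674) or 3 (0.132), with repeated quantile normalisation (0.109), with cyclic loess (0.127) or in a fit of those 6 arrays alone (0.084). KIF4A in untreated cells did not pass without scramble replicate 1 (0.0647) or 3 (0.104) or OLR1 siRNA replicate 1 (0.111) or 3 (0.0513).

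The transport kinesins that passed with OLR1 siRNA went in both directions, and 13 of the 17 had differences below 0 in each treatment. In UVPAPC-treated cells 1 of 17 was higher (7.94% of all genes were), 3 were lower (4.56%) and 13 did not pass. In untreated cells the counts were the same, beside 5.29% of all genes higher and 4.42% lower. Lower signals without overlap were seen for 6 transport kinesins in treated and 8 in untreated cells, beside 14.1% and 13.7% of all genes. Higher signals without overlap were seen for 1 in each treatment, beside 16.6% and 15.0% of all genes. KIF3A, KIF21A and KIF5C were lower in both treatments and KIF5B was higher in both. The median log2 difference over the transport kinesins was -0.10 in treated and -0.08 in untreated cells. No transport kinesin outside KIF3A, KIF3C, KIF5B, KIF5C and KIF21A passed in any of the 4 comparisons between groups, which leaves 12 of 17 that did not.

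KIF3A had the largest difference with OLR1 siRNA of all 41 kinesins in untreated cells. It had 6.33, 6.41 and 6.22 with OLR1 siRNA and 7.52, 7.33 and 7.62 with scramble siRNA, a difference of -1.17 (SE 0.09, 95% interval -1.35 to -0.99, 2.25-fold lower, adjusted p 5.52e-07). In UVPAPC-treated cells it had 6.16, 5.96 and 6.19 with OLR1 siRNA and 6.84, 6.87 and 6.93 with scramble siRNA, a difference of -0.78 (1.71-fold lower, adjusted p 3.72e-05). The siRNA groups were far apart in both treatments. The genes of its complex partners were looked up after these values were seen. KIF3B, the other motor of kinesin-2, had 0.02 in treated cells (adjusted p 0.858) and 0.02 in untreated cells (0.901). KIFAP3, the subunit that binds cargo for the KIF3A and KIF3B pair, had 0.14 (0.397) and 0.20 (0.258), so neither passed.

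KIF5B, the ubiquitous heavy chain of conventional kinesin, had 10.55, 10.58 and 10.43 with OLR1 siRNA and 10.27, 10.32 and 10.19 with scramble siRNA under UVPAPC (0.26, adjusted p 0.0208), and its difference in untreated cells was 0.33 (0.00521). KIF5C, a heavy chain enriched in neurons, had -0.34 in treated cells (adjusted p 0.00747) and -0.31 in untreated cells (0.0117). KIF21A had -0.38 in treated cells (0.0131) and -0.45 in untreated cells (0.00455). KIF5A, the third heavy chain and the largest difference among those that did not pass, had -0.27 (0.0529) and -0.28 (0.0613). It passed without OLR1 siRNA untreated replicate 2 in treated (0.032) and untreated cells (0.0189), and in treated cells without OLR1 siRNA UVPAPC replicate 3 (0.0305). In untreated cells it also passed with array weights (0.0404) and with the mean of its entries (0.0274). In treated cells KIF5B did not pass without scramble replicate 1 (0.0523) or 3 (0.0757) or OLR1 siRNA replicate 1 (0.0767) or 2 (0.0631), with repeated quantile normalisation (0.0975), cyclic loess (0.15) or the 6 arrays alone (0.0609), and KIF21A did not pass without scramble replicate 1 (0.0549) or OLR1 siRNA replicate 3 (0.0529), so that without scramble replicate 1 the count of transport kinesins was 2. In untreated cells KIF5C did not pass without scramble replicate 2 (0.0706) or OLR1 siRNA replicate 1 (0.0629).

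**Figure D2:**
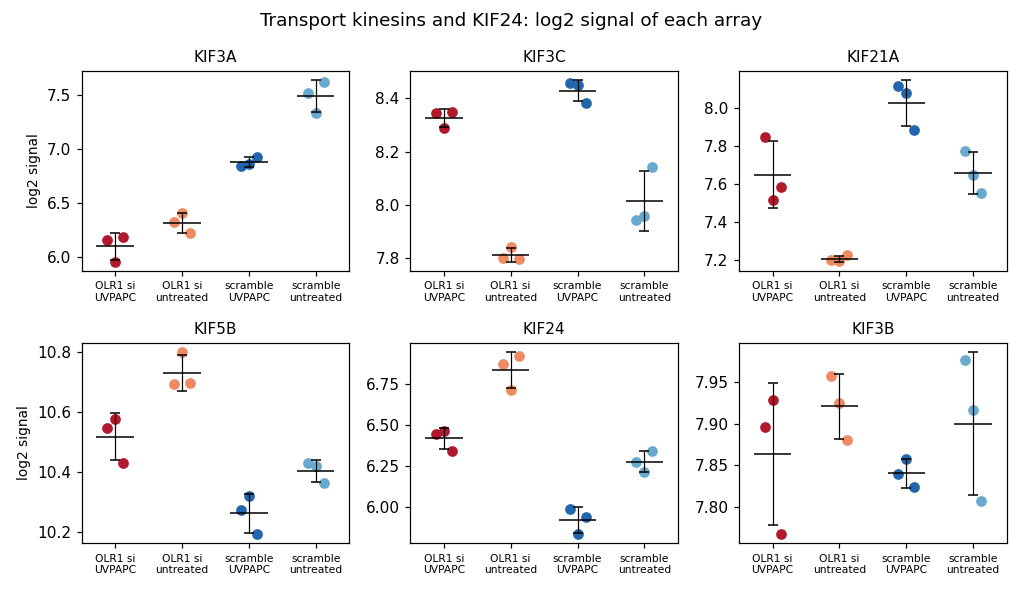
Log2 signal (y axis, own range in each panel) of KIF3A, KIF3C, KIF21A, KIF5B, KIF24 and KIF3B on each of the 12 arrays, by siRNA and treatment. Points are arrays, the line is the group mean and the bars are the SD (n = 3). KIF3A is lower with OLR1 siRNA under each treatment, KIF3C and KIF21A are higher with UVPAPC under each siRNA, and KIF3B lies between 7.77 and 7.98 on all arrays.

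KIF24 was higher with OLR1 siRNA, by 0.50 in UVPAPC-treated cells (adjusted p 0.000557) and 0.56 in untreated cells (0.000143), the same directions as the mitotic kinesins in all 4 comparisons. Its promoter window held the cell cycle homology region at base 2 of the transcript. That was the only match of the motif among the 6 windows of its role group. The share, 16.67%, was close to the 16.35% of all windows. KIF7, which organises the tip of the cilium for Hedgehog signalling, was lower with OLR1 siRNA in treated cells (-0.36, adjusted p 0.00924) and had -0.22 in untreated cells (0.102). Of the group that did not pass, KIF6 had the largest difference in treated cells (-0.26, adjusted p 0.0797) and KIF27 in untreated cells (0.28, 0.145). KIF6 passed without OLR1 siRNA UVPAPC replicate 3 (0.036), and KIF27 without OLR1 siRNA untreated replicate 2 (0.0153). None of the 5 other kinesins passed, and KIF12 had the largest difference in both treatments (-0.17 in treated and -0.17 in untreated cells, adjusted p 0.265 and 0.317).

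**Figure D3:**
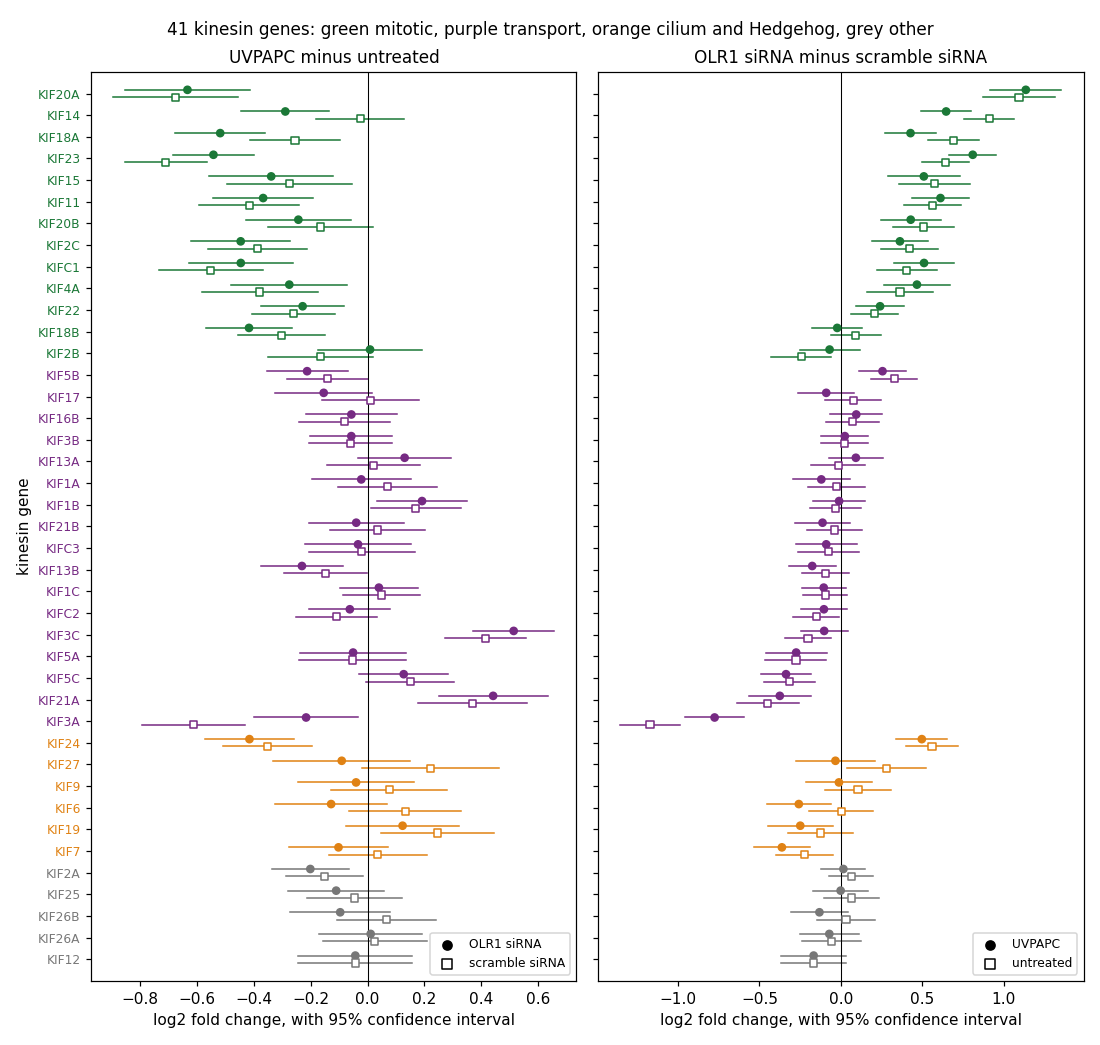
Log2 difference (x axis) of all 41 kinesins with 95% intervals from limma, coloured by role. The left panel gives UVPAPC minus untreated in OLR1 siRNA cells (filled circles) and scramble cells (open squares), and the right panel OLR1 minus scramble siRNA in UVPAPC-treated (filled) and untreated cells (open). Mitotic kinesins lie mostly left of 0 in the left panel and right of 0 in the right panel, while most transport kinesins have intervals that hold 0.

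Whether the response to UVPAPC depended on OLR1 siRNA was tested as the difference of the responses, OLR1 siRNA minus scramble. None of the 41 kinesins passed, nor did any other gene (0 of 18417, a share of 0%, with limma), and 1004 genes and 3 kinesins had an unadjusted p under 0.05. The median of the mitotic kinesins was 0.03 and that of the transport kinesins 0.001. KIF3A had the lowest p, with a response of -0.22 in OLR1 siRNA cells and -0.61 in scramble cells, a difference of 0.40 (SE 0.12, 95% interval 0.14 to 0.65, unadjusted p 0.00481, adjusted p 0.86). KIF14 had a response of -0.29 in OLR1 siRNA cells and -0.03 in scramble cells, a difference of -0.26 (95% interval -0.48 to -0.05, unadjusted p 0.021, adjusted p 0.904). KIF18A had -0.52 in OLR1 siRNA cells and -0.26 in scramble cells, also a difference of -0.26 (unadjusted p 0.0246). For KIF23 the interval of the difference was -0.04 to 0.37, and for KIF20A -0.27 to 0.35. With adjusted p values this high, no kinesin is shown to respond differently, and the intervals do not show that the responses were alike.

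The 4 groups stood apart on the mitotic kinesins as a whole. On each array the median over the 13 genes of the log2 signal minus the gene's mean over 12 arrays lay between 0.02 and 0.10 with OLR1 siRNA and UVPAPC, 0.39 and 0.52 with OLR1 siRNA untreated, -0.50 and -0.29 with scramble siRNA and UVPAPC, and -0.10 and -0.01 with scramble siRNA untreated. No groups overlapped in this median, which was highest with OLR1 siRNA untreated and lowest with scramble siRNA and UVPAPC. Over the 17 transport kinesins the same medians ran from -0.08 to 0.12 over all arrays, with the OLR1 siRNA arrays between -0.08 and -0.004 and the scramble arrays between 0.01 and 0.12. This is a description, with no test.

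**Figure D4:**
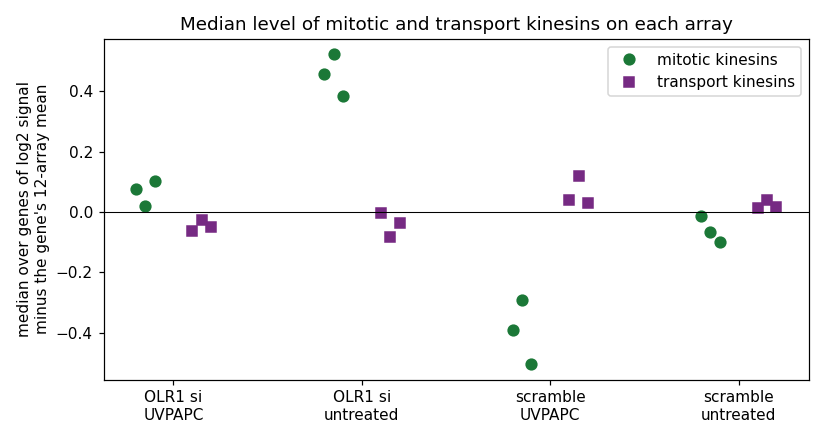
Median log2 signal relative to each gene's mean over 12 arrays (y axis) on every array, for the mitotic and the transport kinesins. Each point is 1 array, by siRNA and treatment. The mitotic medians span -0.50 to 0.52 in 4 groups that do not overlap, and the transport medians stay between -0.08 and 0.12.

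The genes of proteins that work with the mitotic kinesins were read next. Of 40 genes of the spindle, the mitotic kinases and cytokinesis, 23 were lower with UVPAPC in OLR1 siRNA cells and 22 in scramble cells, and 0 were higher, with median log2 differences of -0.32 and -0.28. These are 57.5% and 55% of the list, beside 3.25% and 4.64% of all genes. With OLR1 siRNA 34 were higher in UVPAPC-treated cells and 31 in untreated cells, and 0 were lower, with medians of 0.44 and 0.46. These are 85% and 77.5% of the list, beside 7.94% and 5.29% of all genes. TOP2A, which untangles chromosomes, differed by -0.65 with UVPAPC in OLR1 siRNA cells (adjusted p 2.26e-05) and -0.84 in scramble cells (1.45e-06), and by 1.08 with OLR1 siRNA in treated cells (2.26e-07) and 0.89 in untreated cells (1.14e-06). AURKA, the spindle pole kinase, differed by -0.61 with UVPAPC in OLR1 siRNA cells and -0.54 in scramble cells. HMMR, a spindle assembly protein, was higher with OLR1 siRNA by 1.00 in treated and 1.08 in untreated cells.

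Direct partners of the motors were added after the kinesin values and their own values were seen. RACGAP1, which forms centralspindlin with KIF23, differed by -0.39 with UVPAPC in OLR1 siRNA cells (adjusted p 0.0033) and -0.43 in scramble cells (0.00131), and by 0.49 (0.000597) and 0.44 (0.00111) with OLR1 siRNA in treated and untreated cells. PRC1, the midzone bundler that works with KIF4A, differed by -0.34 (0.00391) and -0.36 (0.00303) with UVPAPC and by 0.61 (3.28e-05) and 0.60 (2.68e-05) with OLR1 siRNA, in the same order. CENPE, the kinetochore kinesin, differed by -0.52 (0.000197) and -0.37 (0.00313) with UVPAPC and by 0.54 (0.000162) and 0.69 (1.2e-05) with OLR1 siRNA. All 3 passed in each of the 4 comparisons, with the directions of the mitotic kinesins, but they were picked with these values seen. AURKB and BIRC5 of the passenger complex that KIF20A carries did not pass with UVPAPC under either siRNA (limma, lowest adjusted p 0.0575). INCENP and CDCA8 of that complex passed with UVPAPC in OLR1 siRNA cells only. With OLR1 siRNA AURKB was higher in both treatments, BIRC5 in treated cells, INCENP in untreated cells and CDCA8 in neither.

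Regulators of cell cycle genes formed a further list. Of 29, 1 was higher and 6 were lower with UVPAPC in OLR1 siRNA cells (24.14%, beside 6.71% of all genes), and 1 was higher and 7 were lower in scramble cells (27.59%, beside 7.31%), with median log2 differences of -0.11 and -0.12. With OLR1 siRNA 11 were higher and 1 was lower in treated cells (41.38%, beside 12.5% of all genes), and 6 were higher and 2 were lower in untreated cells (27.59%, beside 9.71%), with medians of 0.16 and 0.19. E2F8, a repressor made late in S phase, differed by -0.63 with UVPAPC in OLR1 siRNA cells (adjusted p 0.000152) and -0.99 in scramble cells (1.35e-06). CCND1, the cyclin of early G1, differed by -0.47 (0.000476) and -0.60 (4.52e-05) in that order. CCNE2, the cyclin of S phase entry, was higher with OLR1 siRNA by 1.12 in treated cells (2.13e-06) and 0.80 in untreated cells (2.5e-05). NFYB, a subunit of the factor that binds CCAAT, was higher with OLR1 siRNA by 0.47 in each treatment (0.000716 and 0.000523) and had -0.18 with UVPAPC under each siRNA, which did not pass.

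Other genes of microtubule transport were read in the same way. Of 24 kinesin light chains and cargo adaptors, 0 passed with UVPAPC under either siRNA, beside 6.71% of all genes in OLR1 siRNA cells and 7.31% in scramble cells. With OLR1 siRNA 2 were higher and 3 were lower in treated cells (20.83%, beside 12.5% of all genes), and 1 was higher and 2 were lower in untreated cells (12.5%, beside 9.71% of all genes). They included TANC2, a scaffold for KIF1A cargo, at -0.36 in treated cells (adjusted p 0.00255) and -0.40 in untreated cells (0.00109), and SPAG9, a JNK scaffold that binds kinesin light chains, at 0.26 (0.0241) and 0.24 (0.0358). Of 26 genes of dynein and dynactin, the motor of the opposite direction, 0 were higher and 1 was lower with UVPAPC in OLR1 siRNA cells, and 1 was higher and 0 were lower in scramble cells (3.85% under each siRNA). With OLR1 siRNA 3 were higher and 2 were lower in treated cells (19.2%, beside 12.5% of all genes), and 3 were higher and 4 were lower in untreated cells (26.9%, beside 9.71% of all genes), among them the dynactin subunit DCTN2 at -0.33 (0.003) and -0.36 (0.00157). Of 16 tubulins 2 were lower with UVPAPC in OLR1 siRNA cells and 3 in scramble cells (12.5% and 18.75%, beside 3.25% and 4.64% of all genes), with TUBB4B at -0.24 (0.0416) and -0.38 (0.00162) and TUBB at -0.23 (0.0414) and -0.35 (0.00287). With OLR1 siRNA 1 tubulin was higher and 1 was lower in treated cells (12.5%, the share of all genes), and 1 was higher and 2 were lower in untreated cells (18.75%, beside 9.71% of all genes).

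Markers of other cell types were read beside these results. With OLR1 siRNA 1 of 7 endothelial markers (CDH5, 0.50 in treated and 0.65 in untreated cells), 1 of 8 leukocyte markers (CD68, 0.44 and 0.40) and 1 of 6 melanocyte markers (MITF, 0.43 and 0.26) were higher in both treatments, and 1 of 13 fibroblast markers (COL6A2, -0.21) was lower in treated cells. Of all genes 7.94% were higher and 4.56% lower in treated cells, and 5.29% were higher and 4.42% lower in untreated cells. The log2 of the summed signal of the endothelial markers was 8.99 to 9.07 with OLR1 siRNA and 8.75 to 8.82 with scramble siRNA under UVPAPC, and 9.14 to 9.24 with OLR1 siRNA and 8.79 to 8.84 with scramble siRNA untreated. That of the leukocyte markers was 10.03 to 10.15 with OLR1 siRNA and 9.62 to 9.81 with scramble siRNA under UVPAPC, and 10.03 to 10.15 with OLR1 siRNA and 9.74 to 9.80 with scramble siRNA untreated. The melanocyte sum was 8.99 to 9.06 with OLR1 siRNA and 8.77 to 8.85 with scramble siRNA under UVPAPC, and 9.05 to 9.14 with OLR1 siRNA and 8.89 to 8.93 with scramble siRNA untreated. Such a sum weighs the genes of highest signal most. In treated cells 5 of 6 melanocyte, 6 of 7 endothelial and 4 of 8 leukocyte markers were below 0 with OLR1 siRNA. Their median log2 differences were -0.23, -0.06 and -0.03. In untreated cells 2 of 6, 5 of 7 and 3 of 8 were below 0, with medians of 0.02, -0.04 and 0.02 in that order. Of these lists, 1 of 7 endothelial markers (CDH5), 1 of 8 leukocyte markers (CD68), 2 of 6 melanocyte markers (MITF at percentile 83.7 and SOX10 at 51.16) and 4 of 13 fibroblast markers had a mean above the median of all genes. The defining markers PECAM1, PTPRC, TYR and MLANA lay at percentiles 14.9, 3.86, 7.37 and 5.88. None of 8 neuronal markers passed in any comparison. With UVPAPC in scramble cells 2 of 13 fibroblast markers were higher (ZEB2, 0.43, and COL6A2, 0.24) and 1 of 6 melanocyte markers was lower (MITF, -0.23), beside 2.67% of all genes higher and 4.64% lower. In OLR1 siRNA cells none of the markers of other cell types passed, beside 6.71% of all genes. The fibroblast sum was 9.44 to 9.57 with UVPAPC and 9.51 to 9.57 untreated in OLR1 siRNA cells, and 9.59 to 9.68 with UVPAPC and 9.501 to 9.574 untreated in scramble cells, where the groups did not overlap. With UVPAPC 1 of 18 sebocyte and epithelial markers was higher and 3 were lower under each siRNA. That is 22.22%, beside 6.71% of all genes in OLR1 siRNA cells and 7.31% in scramble cells. The lipid droplet gene PLIN2 was at 0.67 in OLR1 siRNA cells and 0.58 in scramble cells, and PPARG at -0.35 and -0.47. The part of these shifts in the kinesin results was not tested.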

How the data were processed

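RNA of SZ95 sebocytes (4 groups of 3 samples) was labelled from 100 ng with the WT PLUS kit, per the labels' protocols. The authors deposited log2 expression values made by RMA. The submitters' processing notes name Affymetrix Expression Console, version 1.3.1.187, and no source used here states the settings. The table has 33297 entries, of which 19460 name 1 gene, 1754 several and 12083 none in the platform annotation. Entries with 1 gene were kept, and for 769 genes with several entries the one with the highest mean, leaving 18417 genes. All 41 kinesin symbols were checked against RefSeq by Entrez number. The deposited values were used without further normalisation.

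Group means were fitted with limma 3.58.1 (R 4.3.3; lmFit and eBayes, 8 residual and 7.66 prior degrees of freedom) over all 12 arrays, and 5 contrasts were tested two-sided, with Benjamini-Hochberg adjustment over all genes at 0.05. Plots and motif searches used Python 3.11.15 and matplotlib 3.10.9. RMA gives no detection call, so low signals have no bound, and the number of arrays limits precision: standard errors of kinesins were 0.06 to 0.11, and 0.09 to 0.16 for the difference of responses. The fit was tested on simulated data.

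The members, role groups and gene lists were chosen with earlier results of these data known. Array values are given for the 4 kinesins with the lowest p per comparison and for members described beside them. Every kinesin past the threshold is named, as is the largest difference per role group that was not, and genes of the other lists were taken from the 4 with the lowest p among those past it. RACGAP1, PRC1, CENPE, KIFAP3 and the passenger complex genes were added after their values were seen. Markers of other cell types are named where they passed or define a cell type. Of the sebocyte and epithelial markers that were lower with UVPAPC, not all are named. Alternatives were variance moderation, array weights, a filter on signal, the mean of entries, 3 rescalings, 6 arrays alone, a replicate block, KIF2A as mitotic and each array left out.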

Additional observations from a re-analysis of the deposited data

How the results depend on the processing

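The 55 kinesin differences past the threshold gave 1153 values under the alternatives. All kept their direction, 1113 stayed past the threshold and 40 did not, 34 of them among the 660 values with 1 array left out, 2 with cyclic loess, 2 with repeated quantile normalisation and 2 in fits of 6 arrays. For 44 of the 55 no alternative that was run ended the call. With genes above the median signal only, the median of the transport kinesins for UVPAPC in scramble cells was -0.0407 instead of 0.01, and 4 instead of 2 transport kinesins passed for UVPAPC in OLR1 siRNA cells; fewer genes were tested there, and the cause was not tested further. KIF2B, which did not pass, turned to 0.019 for OLR1 siRNA in treated cells without OLR1 siRNA replicate 3 (range with 1 array left out -0.159 to 0.019).

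With 1 array left out, the count of all genes past the threshold ran from 868 to 1340 for UVPAPC in scramble cells (lowest without untreated replicate 1), 1101 to 2055 for OLR1 siRNA in untreated cells (lowest without OLR1 siRNA replicate 2, then 1113 and 1158 without scramble replicates 2 and 3) and 1267 to 2254 for OLR1 siRNA in treated cells (lowest without OLR1 siRNA replicate 1, and 1372 without scramble replicate 3). Mitotic kinesins past it ran from 5 to 10 for UVPAPC in scramble cells and transport kinesins from 2 to 5 for OLR1 siRNA in treated cells. The transport median ran from -0.0405 to 0.0308 for UVPAPC in scramble cells, the mitotic median from 0.418 to 0.569 for OLR1 siRNA in treated cells, and for the difference of responses from -0.0692 to 0.0794 (mitotic) and -0.0397 to 0.0243 (transport). The rescalings moved the median of all genes by less than 0.1.

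The correlation of deviations from the group means ran from -0.22 to 0.11 for same-numbered arrays and from -0.26 to 0.27 for differently numbered ones. Deviations within a group of 3 arrays are tied to each other, so these values cannot show whether same-numbered arrays were handled together. With the replicate number as a block, 1220 and 1309 genes passed for UVPAPC in OLR1 siRNA and scramble cells, 2309 and 1756 for OLR1 siRNA in treated and untreated cells, and 0 for the difference. The mitotic counts were 8, 8, 11, 10 and 0 and the transport counts 2, 3, 4, 4 and 0 in that order, and all 55 kinesin calls were kept.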

Other observations

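Further entries of the kinesins were not members of the comparisons. A second KIFC1 entry gave -0.46 and -0.51 with UVPAPC in OLR1 siRNA and scramble cells and 0.47 and 0.42 with OLR1 siRNA in treated and untreated cells. A second KIF18B entry gave -0.30 and -0.27 with UVPAPC and 0.03 and 0.07 with OLR1 siRNA, in the same order. A second KIF5A entry gave -0.003 and -0.15 with UVPAPC and -0.36 and -0.51 with OLR1 siRNA. The entry that names both KIF4B and KIF4A gave -0.17 and -0.08 with UVPAPC and 0.11 and 0.20 with OLR1 siRNA (SE 0.08), against -0.28, -0.38, 0.47 and 0.36 for the entry of KIF4A alone, and signal of the KIF4B and KIF4A copies cannot be separated in the shared entry. Entries that name KIF27 with another gene gave -0.15 and -0.25 with UVPAPC in OLR1 siRNA cells, against -0.09 for KIF27 alone. In scramble cells they gave -0.28 and -0.23, against 0.22, the opposite direction. With OLR1 siRNA they gave 0.04 and 0.03 in treated cells, against -0.03. In untreated cells they gave -0.10 and 0.06, against 0.28.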
